A study of Mus musculus with 32 samples.

Results

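The comparison set the cerebellar vermis of wild-type mice exposed to ethanol before birth against that of Acss2 knockout mice exposed to saline, and asked whether prenatal ethanol leaves a transcriptome like that of mice without the enzyme. Its members were 8 libraries of 32 in the series, 4 per group, chosen by the columns of the deposited gene count table. All mice were C57BL/6J. The ethanol WT group was wild type and its dams were injected intraperitoneally once a day with 3 g/kg ethanol (20% v/v in saline) from the first of 5 nights with a stud until birth. The saline KO group was labelled ACSS2 KO and its dams received an equal volume of saline on the same schedule. The saline WT group (4 libraries), wild type with saline-injected dams, served as the shared reference for the shift of each group, and the ethanol KO group (4 libraries), labelled ACSS2 KO with ethanol-injected dams, entered the fit and is given only for context. Pups left the dam at postnatal day 21, tissue was taken between days 40 and 50, and each group held 2 females (F1, F3) and 2 males (M1, M3), each library from a different mouse. The labels do not give the knockout allele, litters or library preparation batches, and they give all libraries 1 sequencing batch.

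ACSS2 is the nuclear and cytosolic acetyl-CoA synthetase, which makes acetyl-CoA from acetate. The liver oxidises ethanol to acetaldehyde and then to acetate, and in brain ACSS2 can turn this acetate into acetyl groups on histones. A state shared by ethanol exposure and loss of ACSS2, and a state opposed between them, are therefore both of interest. The vermis is the midline of the cerebellum and is made mostly of granule neurons, with Purkinje neurons, interneurons and glia.

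The 8 libraries held between 46391038 and 72115690 counts, and the saline WT libraries between 64722310 and 73803508. Defining markers of granule neurons and Purkinje neurons were high in every library: the mean level of the granule list was 8.39 to 8.81 log2 CPM (CPM, counts scaled to a common library total) in ethanol WT and 8.38 to 8.58 in saline KO, and that of the Purkinje list 7.87 to 8.19 and 8.01 to 8.23. Between the groups, edgeR called 0 of 17 granule markers (1 at an unadjusted p under 0.05, 1 by DESeq2) and 0 of 20 Purkinje markers (2 and 1). Ethanol WT M1 and saline KO F1 lay farthest out in their groups on the first principal component, so calls are also given without them. In the reference, saline WT F1 stood apart on the third component (-66.0, against 10.4 to 30.5 in the rest of its group). It held 3.93% mitochondrial counts, against 5.11% to 5.25%. This library enters both shifts and the mean shift.

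Acss2 was measured first as a check of the labels. It stood at 68.3, 59.8, 59.1 and 57.0 CPM in ethanol WT F1, F3, M1 and M3 and at 17.4, 17.8, 19.6 and 17.1 CPM in saline KO. The groups did not overlap, and the saline WT libraries (68.4, 63.3, 60.0 and 55.9 CPM) lay among those of ethanol WT. The level in ethanol WT was 3.39-fold that in saline KO (log2 difference 1.76 ± 0.16 SE, edgeR adjusted p = 6.38e-06), and the exact two-sided permutation test of the 4 against 4 libraries gave p = 0.0286, the smallest this design allows. Relative to saline WT, Acss2 differed by -0.02 in ethanol WT (95% interval -0.35 to 0.31) and by -1.78 in saline KO. Reads that remained in the knockout were counted over the whole gene, since the table does not separate the exons.

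Ethanol WT and saline KO differed in 1166 of 22441 genes tested (5.2%, edgeR quasi-likelihood test, adjusted p under 0.05), of which 51 were higher (0.227%) and 1115 lower (4.97%) in ethanol WT. Every ethanol WT library lay above every saline KO library in 872 genes (3.89%) and below in 2062 (9.19%). The lower genes included nearly all genes of the cytosolic ribosome and most nuclear genes of the respiratory chain. The 1166 genes, counted in both directions, held 365 pseudogenes, many of which can share reads with a parent gene. Of 691 protein-coding genes that were lower, 195 (28.2%) belonged to 5 lists of ribosomal proteins, respiratory subunits, proteasome subunits and translation factors. Of all 15601 tested protein-coding genes, 307 belonged to these lists. The shift from saline WT held 1102 calls (4.91%) in saline KO, 1038 of them higher (4.63%) and 64 lower (0.285%), and 1 call (0.00446%) in ethanol WT, which became 0 with the replicate number as a block. Both shifts use the same 4 saline WT libraries and are not independent, whereas the direct difference does not use them as a reference. At an unadjusted p under 0.05, 1194 genes passed in the ethanol shift, and DESeq2 called 17. Without ethanol WT M1 and saline KO F1 the direct comparison held 570 calls, 4 of them higher.

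Whole-transcriptome distances between libraries were similar within and across groups. Over 16248 genes with a mean of at least 1 CPM, the mean root-mean-square log2 difference was 0.461 between ethanol WT and saline KO libraries. It was 0.452 among ethanol WT libraries, 0.407 among saline KO libraries and 0.381 among saline WT libraries. Single pairs ranged from 0.297 to 0.604 within ethanol WT and from 0.332 to 0.648 between ethanol WT and saline KO. Ethanol WT lay at 0.410 from saline WT, and saline KO at 0.438. Mice of the ethanol WT group were on average nearly as far apart as a mouse of that group and a mouse of saline KO.

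The promoters of the 3 lower genes of smallest p, and of both metallothioneins discussed further on, are shown here because they stand for the genes described here: those with a knockout shift and no call in the ethanol shift, and those at a higher level in every library of both groups than in any saline WT library. The sequences are RefSeq's (GRCm38.p6), run from 250 bases before to 50 after the listed start, 5′ to 3′ on the gene's strand. In the first 3, capitals mark the ETS motif CCGGAAG or the YY1 motif AAGATGG on either strand. Rpl35a lies at chr16:33056203-33056502 (+), Uqcc2 at chr17:27133842-27134141 (-), and Atp5f1e, listed by RefSeq as Atp5e, at chr2:174464052-174464351 (-).
Rpl35a: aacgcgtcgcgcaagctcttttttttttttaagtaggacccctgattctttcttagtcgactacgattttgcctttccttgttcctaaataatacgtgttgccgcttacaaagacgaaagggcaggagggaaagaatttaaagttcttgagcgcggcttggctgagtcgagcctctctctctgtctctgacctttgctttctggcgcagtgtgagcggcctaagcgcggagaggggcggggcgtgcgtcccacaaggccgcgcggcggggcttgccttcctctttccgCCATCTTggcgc
Uqcc2: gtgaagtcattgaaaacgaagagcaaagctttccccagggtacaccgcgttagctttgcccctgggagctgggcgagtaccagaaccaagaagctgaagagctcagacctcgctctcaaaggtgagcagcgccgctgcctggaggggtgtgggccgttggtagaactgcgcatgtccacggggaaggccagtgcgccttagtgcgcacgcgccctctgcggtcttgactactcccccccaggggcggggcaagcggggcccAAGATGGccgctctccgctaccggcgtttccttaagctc
Atp5f1e: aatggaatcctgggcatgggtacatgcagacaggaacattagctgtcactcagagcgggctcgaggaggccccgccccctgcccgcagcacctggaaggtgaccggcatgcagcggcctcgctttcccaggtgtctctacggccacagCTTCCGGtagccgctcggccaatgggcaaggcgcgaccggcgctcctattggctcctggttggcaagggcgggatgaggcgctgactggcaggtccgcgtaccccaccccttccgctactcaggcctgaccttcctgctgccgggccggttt
Rpl35a and Uqcc2 each held 1 YY1 match just after the start, and Atp5f1e held 1 ETS match. The ETS motif was found in 38.3% of the 60 ribosomal protein promoters that could be matched (of 80), in 23.1% of the 65 matched respiratory promoters (of 77), and in 15.3% of the 13287 matched promoters of tested genes. The YY1 motif was found in 15%, 15.4% and 6.65% of them. Among genes called between the groups, the ETS motif was in 26.2% of the 558 matched promoters of lower genes and in 32.5% of the 40 matched promoters of higher genes, and the YY1 motif was in 11.6% and 2.5%. Among all 27025 promoters of the table the shares were 9.12% and 6.48%. Such matches are letters in a window and were not measured as bound sites.

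Ribosomal protein genes were lower in ethanol WT than in saline KO with few exceptions. They encode the small and large subunits of the cytosolic ribosome. Of 80 measured genes, 77 passed the test and all 80 had a negative difference, with a median of -0.80 on the log2 scale against 0.01 for all tested genes. In 79 of the 80, every ethanol WT library was below every saline KO library, against 9.19% of all tested genes.

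Rpl35a, a protein of the large subunit (chromosome 16, first exon 32876823 to 32876880, GRCm39), had the smallest p. It measured 28.2, 26.3, 25.4 and 27.2 CPM in ethanol WT and 69.0, 67.2, 63.7 and 65.1 CPM in saline KO. Its saline WT libraries measured 34.7, 28.5, 30.5 and 29.4 CPM. The saline KO libraries were the high ones, with a gap to all others, and the ethanol WT level was 0.404 times theirs (log2 -1.31 ± 0.07, adjusted p = 1.68e-07). Rpl10a, also of the large subunit, stood at 43.7 to 47.3 CPM in ethanol WT and 77.4 to 86.4 CPM in saline KO (0.551 times, adjusted p = 2.24e-07), and its saline WT range was 46.2 to 48.7 CPM. Rps3, a small-subunit protein at the mRNA entry of the ribosome, stood at 77.7 to 85.9 against 157 to 196 CPM (0.465 times, adjusted p = 3.41e-07). Rpl34 (-1.18), Rpl39 (-1.40), Rps27 (-1.23), Rpl26 (-1.03), Rps25 (-0.94) and Rps14 (-1.49) moved the same way.

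The list mean showed where each group stood. It was 5.83 to 6.01 log2 CPM in ethanol WT, 5.97 to 6.01 in saline WT, 6.64 to 6.80 in saline KO and 6.56 to 6.92 in ethanol KO. The 2 wild-type groups overlapped and both knockout groups lay above them. The ethanol shift had a median of -0.07 with 0 of 80 genes called by edgeR (6 at an unadjusted p under 0.05, 0 by DESeq2), and the knockout shift a median of 0.74 with 77 of 80 called.

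**Figure D1:**
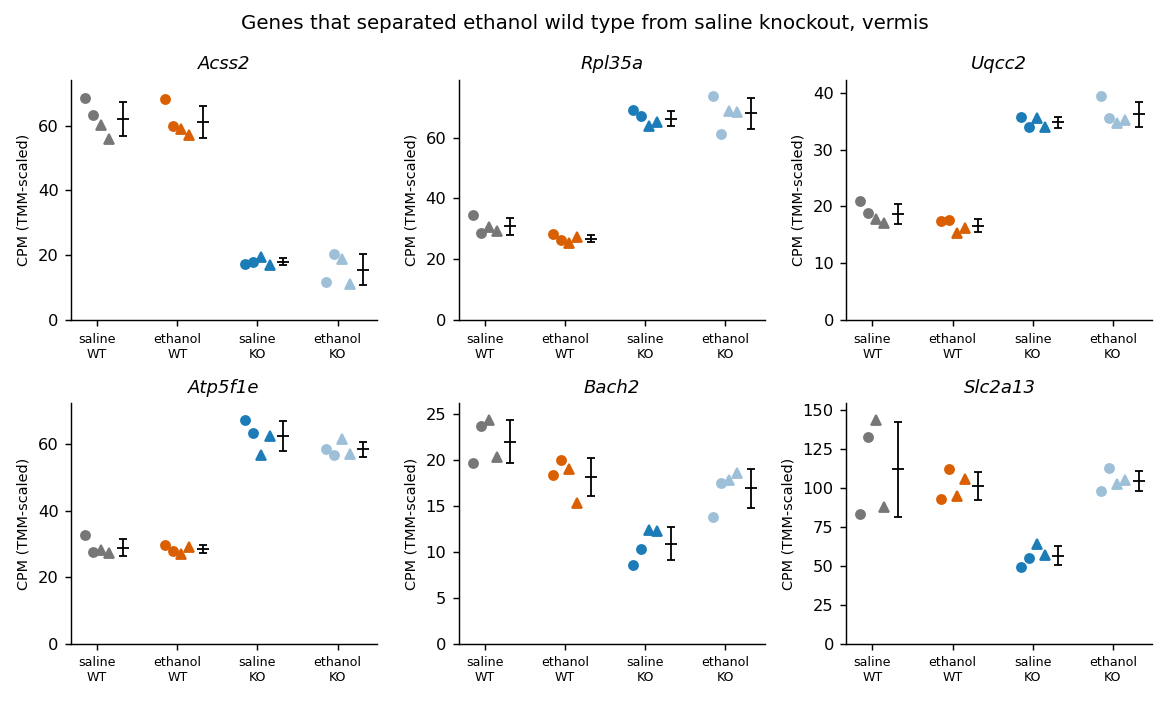
TMM-scaled CPM of 6 genes in the 16 vermis libraries, with circles for females, triangles for males and a bar for the mean and SD of the 4 libraries of each group. For Rpl35a, Uqcc2 and Atp5f1e the saline KO libraries lie above all ethanol WT and saline WT libraries, and for Acss2 they lie below, at 17.1 to 19.6 CPM.

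Genes of the respiratory chain encoded in the nucleus were lower as well. Of 77 measured genes, 64 passed the test, all lower, with a median of -0.51. Atp5f1e, the epsilon subunit of ATP synthase (chromosome 2, first exon 174302865 to 174303014), measured 29.8, 27.8, 27.0 and 29.1 CPM in ethanol WT, 67.4, 63.2, 56.7 and 62.5 CPM in saline KO, and 32.7, 27.5, 28.1 and 27.2 CPM in saline WT. The saline KO libraries were again the high ones, with the ethanol WT level 0.455 times theirs (log2 -1.13 ± 0.07, adjusted p = 2.13e-07). Uqcc2, an assembly factor of complex III, measured 15.3 to 17.6 CPM in ethanol WT, 33.9 to 35.8 in saline KO and 17.1 to 20.97 in saline WT (0.477 times, adjusted p = 2.13e-07). Chchd2, a protein of the mitochondrial intermembrane space, fell by 0.88, and the ATP synthase subunit Atp5mk fell by 1.07 relative to saline KO. The cytochrome oxidase subunits Cox7a2 (-0.98) and Cox7c (-0.94) passed as well. The list mean was 5.96 to 6.11 log2 CPM in ethanol WT and 5.97 to 6.11 in saline WT, against 6.46 to 6.61 in saline KO.

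Transcripts made inside the mitochondrion did not follow this pattern as a group. Of the 15 mitochondrially encoded transcripts, 1 passed the test, mt-Co3, a core subunit of cytochrome oxidase (log2 -0.45, adjusted p = 0.0176), and the median was -0.04. That call was lost without any 1 of 5 libraries, with adjusted p of up to 0.0938. The mean levels overlapped, with 10.9 to 11.2 log2 CPM in ethanol WT and 11.1 in all 4 saline KO libraries. Of 77 mitochondrial ribosomal proteins, 32 were lower, against 4.97% of all tested genes, and none higher (median -0.19).

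Other protein-making and protein-clearing machinery moved in part. The counts of lower genes that follow stand against 4.97% of all tested genes. Of 31 proteasome subunits, 13 were lower, all of them alpha or beta subunits of the core particle, and none was higher. Psmb4 measured 58.9, 56.7, 54.2 and 53.4 CPM in ethanol WT against 100, 86.6, 85.7 and 93.8 CPM in saline KO (log2 -0.72, adjusted p = 2.4e-06). Of 41 translation factors, 8 were lower, among them Eif3i, a subunit of the initiation factor that loads the small ribosomal subunit (log2 -0.63), and none was higher. The heat shock list held 1 call among 36, the mitochondrial co-chaperonin Hspe1 (-0.60). The antioxidant list held 5 lower genes among 27, the thioredoxin Txn1 (-0.50), the peroxiredoxin Prdx1 (-0.60), the glutathione peroxidases Gpx1 (-0.49) and Gpx4 (-0.86) and the superoxide dismutase Sod1 (-0.43), and 1 higher gene, Bach2. Gpx1 was lost without any 1 of 10 libraries (adjusted p up to 0.167), and Gpx1 and Sod1 without ethanol WT M1 and saline KO F1 together (0.338 and 0.165).

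**Figure D2:**
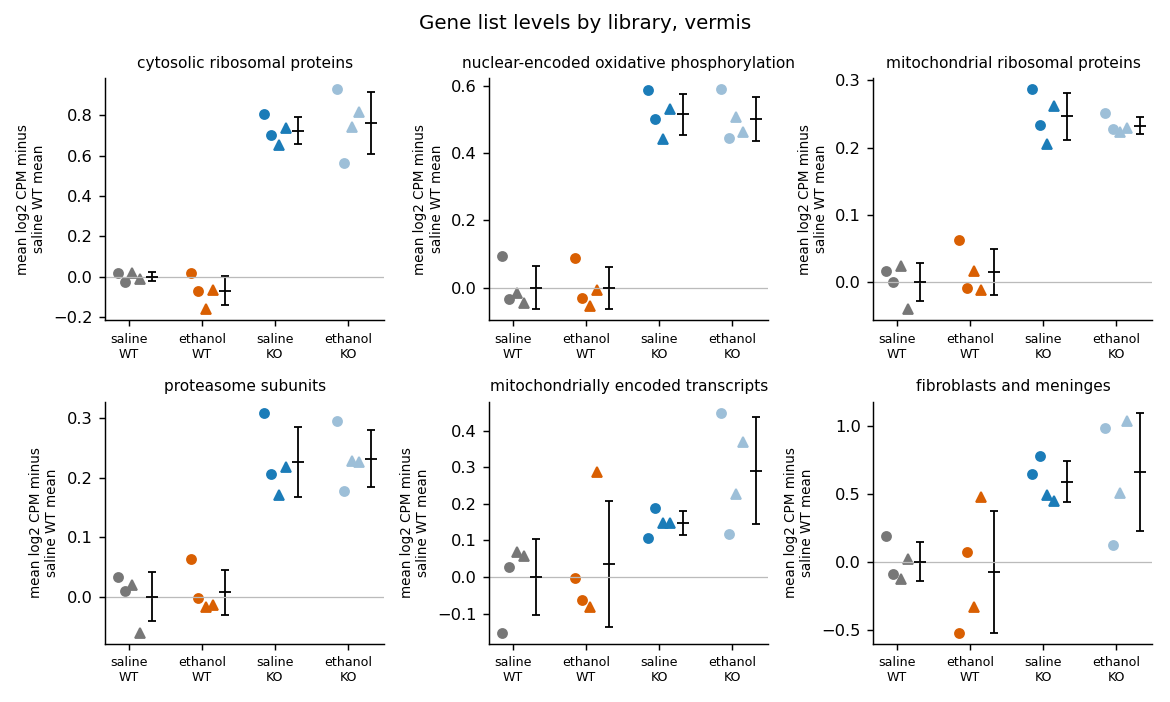
Mean log2 CPM of 6 gene lists in each vermis library, minus the mean of the saline WT libraries (circles female, triangles male, bar for the mean and SD of 4 libraries). The ribosomal list lies at 6.64 to 6.80 log2 CPM in saline KO and at 5.83 to 6.01 in ethanol WT, while the fibroblast list is spread widely within ethanol WT.

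The difference also followed gene length. Among protein-coding genes outside the ribosome and respiration lists, 24.1% of the 365 genes under 1000 bases were lower in ethanol WT, 17.8% of those from 1000 to under 1500 bases, and 0.521% of the 6527 genes of 5000 bases or more. The median difference went from -0.31 in the shortest class to 0.04 in the longest. The median deviation of genes under 1500 bases was -0.19 to -0.06 in the ethanol WT libraries, -0.12 to -0.08 in saline WT, 0.08 to 0.17 in saline KO and 0.08 to 0.23 in ethanol KO. The wild-type libraries lay below the knockout libraries in this measure, without overlap. With an offset for gene length, 913 genes were called and the ribosomal and respiratory medians were -0.75 and -0.45. RNA quality per library and preparation batches are not given, and their part in the difference was not tested.

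**Figure D3:**
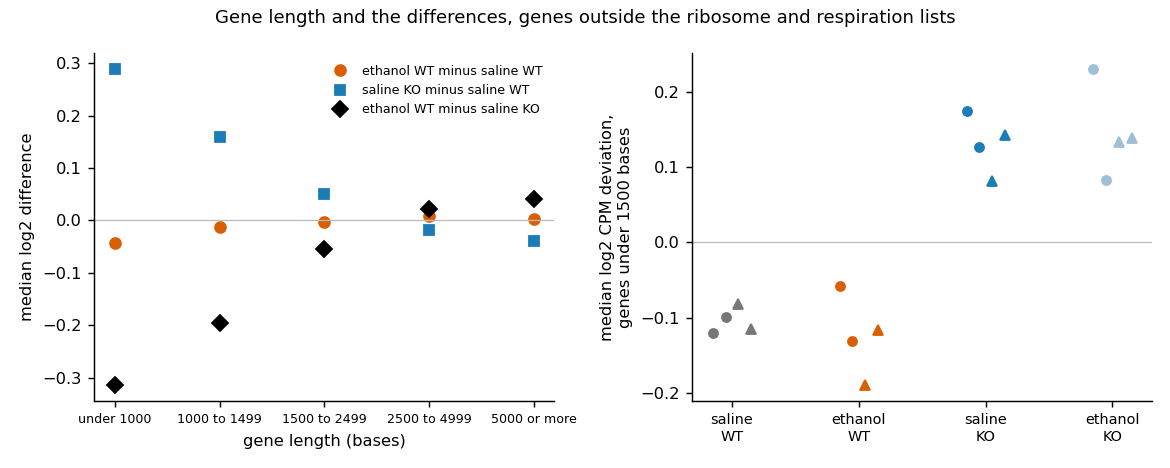
Left, median log2 difference by gene length class for protein-coding genes outside the ribosome and respiration lists, for each shift and for ethanol WT minus saline KO. Right, median deviation of genes under 1500 bases in each library, which is below 0 in the wild-type libraries and above 0 in the knockout libraries.

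Few genes were higher in ethanol WT than in saline KO. Bach2, a transcriptional repressor that competes with NRF2 for its sites, measured 18.4, 20.0, 19.0 and 15.3 CPM in ethanol WT, 8.61, 10.3, 12.4 and 12.3 CPM in saline KO, and 19.7, 23.7, 24.3 and 20.3 CPM in saline WT. Ethanol WT was 1.68-fold above saline KO, without overlap (adjusted p = 0.00128). Slc2a13, the proton-coupled myo-inositol transporter, measured 93.1, 112, 94.7 and 106 CPM in ethanol WT and 49.2, 55.2, 64.2 and 57.0 CPM in saline KO (1.8-fold, adjusted p = 0.00307). Its saline WT libraries, at 83.5 to 143.5 CPM, overlapped ethanol WT. The ethanol KO libraries lay near ethanol WT for Slc2a13, at 98.0 to 113 CPM. For Bach2 they measured 13.8 to 18.6 CPM, above all saline KO libraries and overlapping ethanol WT.

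Enzymes, a receptor subunit and trafficking genes were also among them. Pde10a, a phosphodiesterase of cyclic nucleotides, measured 113 to 146 CPM in ethanol WT and 57.0 to 88.9 in saline KO (1.77-fold, adjusted p = 0.00499). Grin2a, which encodes an NMDA receptor subunit, measured 139 to 155 against 86.1 to 124 CPM (1.38-fold, adjusted p = 0.00915) and was the 1 call among 25 glutamate receptor genes. The saline WT ranges of Pde10a (102 to 141.9 CPM) and Grin2a (118.1 to 150.5 CPM) overlapped those of ethanol WT. Neither gene was called in the ethanol shift. Otud7a, a deubiquitinase (1.5-fold), Arfgap1, which acts on a Golgi small GTPase, Rab15, a small GTPase of endosomes, and Mapk11, a p38 kinase (1.25-fold), were higher too. The ethanol KO ranges of Otud7a, Pde10a, Grin2a and Mapk11 overlapped both ethanol WT and saline KO. Those of Arfgap1 and Rab15 overlapped saline KO and lay below ethanol WT. Without ethanol WT M1 and saline KO F1 together, the calls of Otud7a, Pde10a, Grin2a, Arfgap1, Rab15 and Mapk11 were lost, with adjusted p of 0.0508, 0.0597, 0.053, 0.0583, 0.0666 and 0.162. Mapk11 was also lost without ethanol WT F3 or saline KO F1 alone (adjusted p up to 0.0591), while the other 5 genes, Bach2 and Slc2a13 passed whichever 1 library was left out.

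Genes were also tested for a difference from saline WT in the mean of ethanol WT and saline KO, and most of those called repeated the knockout shift. This mean shift was called in 271 genes (1.21%), with 257 higher (1.15%) and 14 lower (0.0624%), and 241 of these (88.9%) were also called between the groups, against 5.2% of all genes tested. The median shift over the 271 was -0.01 in ethanol WT and 0.69 in saline KO. The other 30 genes were not called between the groups. Of these, only Mt2 was called in the ethanol shift, and false calls of the mean shift can be among them. The count of 271 was 88 without saline WT F3 and 121 without saline WT M3, and since the reference is shared, a deviation of the saline WT libraries cannot be told apart from a shift of both groups.

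Mt2, a metallothionein that binds zinc and copper, had the smallest p of the genes not called between the groups, and was the 1 gene called in the ethanol shift. It measured 141, 112, 123 and 118 CPM in ethanol WT, 137, 125, 99.6 and 121 CPM in saline KO, and 76.6, 84.8, 81.0 and 68.7 CPM in saline WT. All 8 libraries of the compared groups were above all 4 of saline WT, which is not independent of its choice by small p. The ethanol shift was 1.59-fold (adjusted p = 0.0312) and the knockout shift 1.55-fold (adjusted p = 0.000246). Between the groups the log2 difference was 0.04, with a 95% interval of -0.14 to 0.22. The ethanol shift call was lost with the replicate block (adjusted p = 0.11), without the sex term (0.12), without ethanol WT M1 and saline KO F1 together (0.236), and without any 1 of 7 libraries (ethanol WT F1, M1 or M3, saline WT F1, F3 or M3, or saline KO F3, adjusted p up to 0.209), with log2 values of 0.64 to 0.74 over all libraries left out in turn. The ethanol KO libraries, at 71.4 to 89.7 CPM, were near saline WT.

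Mt1, its neighbour on chromosome 8, measured 151 to 183 CPM in ethanol WT, 142 to 178 in saline KO and 116 to 126 in saline WT (mean shift log2 0.41, adjusted p = 0.00593). The promoters of both genes follow, with the core of the metal response element, TGCGCNC or TGCACNC on either strand, in capitals. Mt2 lies at chr8:94172368-94172667 (+) and Mt1 at chr8:94178839-94179138 (+).
Mt2: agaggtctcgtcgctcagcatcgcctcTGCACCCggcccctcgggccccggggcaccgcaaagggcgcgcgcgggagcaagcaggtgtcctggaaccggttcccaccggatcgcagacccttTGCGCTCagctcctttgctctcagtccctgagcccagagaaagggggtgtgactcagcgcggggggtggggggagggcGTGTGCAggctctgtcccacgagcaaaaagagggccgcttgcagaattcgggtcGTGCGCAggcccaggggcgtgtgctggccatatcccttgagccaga
Mt1: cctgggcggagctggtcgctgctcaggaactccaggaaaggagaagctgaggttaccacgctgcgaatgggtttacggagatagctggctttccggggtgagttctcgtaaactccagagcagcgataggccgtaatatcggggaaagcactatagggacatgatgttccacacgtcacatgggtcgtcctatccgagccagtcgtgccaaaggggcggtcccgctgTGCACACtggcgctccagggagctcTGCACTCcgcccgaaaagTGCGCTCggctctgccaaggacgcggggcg
The Mt2 window held 4 matches and the Mt1 window 3, and at least 1 was held by 35.3% of the matched promoters of tested genes and 25.6% of all promoters of the table.

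**Figure D4:**
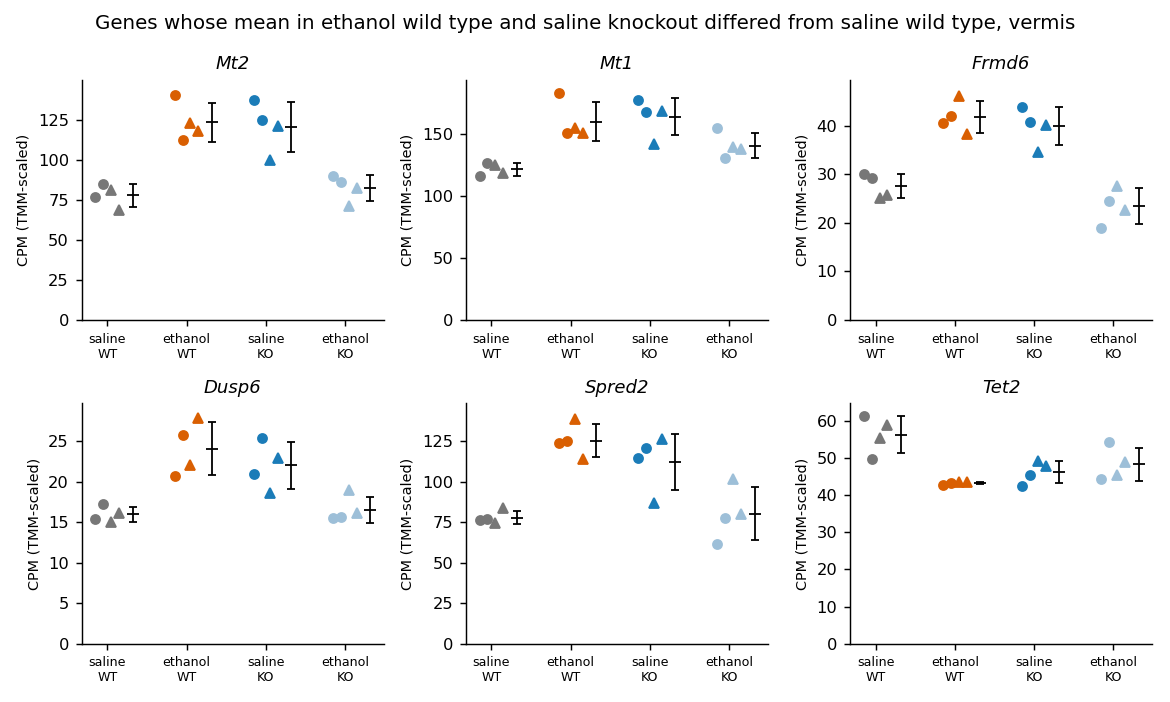
TMM-scaled CPM of 6 genes in the 16 vermis libraries (circles female, triangles male, bar for the mean and SD of 4 libraries). Mt2 and Frmd6 lie higher in every ethanol WT and saline KO library than in any saline WT library, and Tet2 lies lower. The genes were named for small p in a shift from saline WT or in the mean shift.

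Frmd6, a scaffold upstream of Hippo signalling, measured 40.6, 42.0, 46.2 and 38.2 CPM in ethanol WT, 43.9, 40.9, 34.6 and 40.2 CPM in saline KO and 30.0, 29.3, 25.1 and 25.7 CPM in saline WT. Its mean shift was 0.57 on the log2 scale (adjusted p = 0.00784) and the difference between the groups 0.07 (interval -0.16 to 0.30). Dusp6, a phosphatase of ERK, measured 20.7 to 27.9, 18.7 to 25.4 and 15.1 to 17.2 CPM in the same order (mean shift 0.53, adjusted p = 0.0127). Spred2, an inhibitor of Ras signalling, measured 114 to 139, 87.0 to 126 and 74.2 to 83.5 CPM (mean shift 0.61, adjusted p = 0.0168). Tsc22d3, a glucocorticoid-induced gene, measured 94.3 to 114, 93.8 to 99.8 and 71.7 to 83.7 CPM (mean shift 0.34, adjusted p = 0.0254). For these 3 genes no library of the 2 groups fell within the range of saline WT. They were named, like Mt2, Mt1 and Frmd6, for small p in a shift from saline WT or in the mean shift. The lack of overlap therefore depends on that choice and is no further support. Its share among all tested genes was not counted.

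Genes that lay lower in both groups were fewer. Tet2, an enzyme of DNA demethylation, measured 42.8 to 43.6 CPM in ethanol WT, 42.5 to 49.3 in saline KO and 49.8 to 61.2 in saline WT (mean shift -0.33, adjusted p = 0.0139). The zinc finger gene Zfp810 (mean shift -0.38, adjusted p = 0.013) and Ccdc9b (-0.39, adjusted p = 0.0108) were also lower. Leaving out 1 library ended the mean-shift calls of Dusp6 (saline WT M1 or M3, adjusted p up to 0.0646), Spred2 (any saline WT library, 0.0815), Tet2 (saline WT F1 or M3, 0.0771), Zfp810 (saline WT F3, M1 or M3, 0.0969), Ccdc9b (saline WT F3 or M3, 0.0741) and Tsc22d3 (saline WT F1, F3 or M3 or saline KO F3, M1 or M3, 0.168). Mt2, Mt1 and Frmd6 passed in every such fit, with highest adjusted p of 0.0265, 0.0417 and 0.0467.

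**Figure D5:**
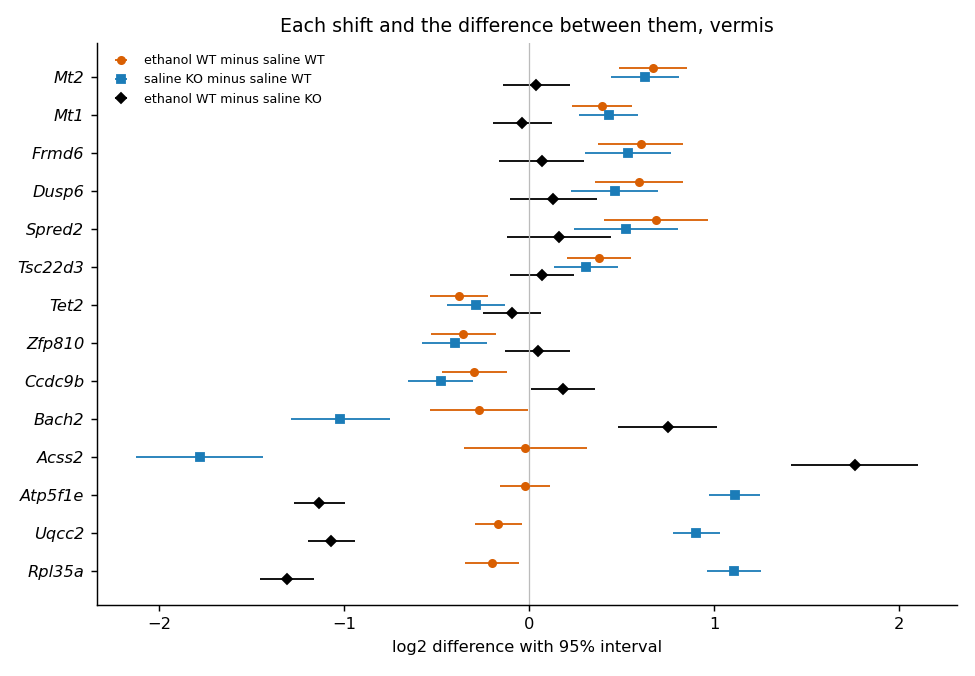
Log2 difference with its 95% interval for 14 genes, as the ethanol shift, the knockout shift (both from the same saline WT libraries) and the difference between them. For Mt2 to Zfp810 the interval of the difference includes 0, and for Ccdc9b, Bach2, Acss2, Atp5f1e, Uqcc2 and Rpl35a it does not.

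Lists tied to stress hormones, activity and the clock held few calls between the groups. Of 20 glucocorticoid-responsive genes, 0 were called by edgeR between them (4 at an unadjusted p under 0.05, 1 by DESeq2), and the median difference was 0.05, while the medians of the shifts from saline WT were 0.39 in ethanol WT and 0.21 in saline KO. Of these 20 genes, 1 was called in the ethanol shift (Mt2) and 4 in the knockout shift (Mt2, Mt1, Tsc22d3 and Cdkn1a, a cell-cycle inhibitor). Of all tested genes, 0.00446% and 4.91% were called in these shifts. At an unadjusted p under 0.05, 13 of the 20 passed in the ethanol shift and 11 in the knockout shift. Of all 22441 genes, 1194 and 3152 did. DESeq2 called 4 and 5 of the 20. Both shifts use the same saline WT libraries. The list mean was 4.60 to 4.90 log2 CPM in ethanol WT, 4.46 to 4.72 in saline KO and 4.27 to 4.48 in saline WT. In ethanol KO it was 3.87 to 4.31, not above saline WT. Of 39 activity-regulated genes, edgeR called 2 lower in ethanol WT, a share near the 4.97% of all tested genes that were lower. The median difference was -0.18, with 14 positive and 25 negative. At an unadjusted p under 0.05, 12 passed (2944 of all 22441 genes did), and DESeq2 called 4. In 8 of the 39, every ethanol WT library was below every saline KO library, against 9.19% of all tested genes. The 2 edgeR calls were Rheb, a small GTPase that activates mTORC1 (log2 -0.33), and Fos, an immediate early gene. Fos measured 15.3, 11.5, 16 and 8.37 CPM in ethanol WT, 62.4, 20.0, 32.2 and 35.1 CPM in saline KO and 20.8 to 25.7 CPM in saline WT (log2 -1.54 ± 0.35, adjusted p = 0.0176). Saline KO F1 held the highest level of Fos and ethanol WT M3 the lowest, and its call was lost without either of them and without ethanol WT F1 or F3 or saline KO M3 (adjusted p up to 0.0766). Of 20 clock genes, the output factors Tef (log2 0.29, adjusted p = 0.0255) and Dbp (0.22, adjusted p = 0.0481) were higher (0.227% of all tested genes were), but leaving out single libraries ended both calls (adjusted p up to 0.107 and 0.189). The time of death is not given.

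Few genes of acetate and ethanol metabolism other than Acss2 were called, where 4.97% of all tested genes were lower. Of 26 genes for acetate supply and other routes to acetyl-CoA, 0 were called by edgeR (4 at an unadjusted p under 0.05, 1 by DESeq2), with a median of 0.08. Of 17 measured genes of ethanol and aldehyde oxidation, 1 was lower, the aldehyde reductase Akr1a1 (-0.26). Of 38 genes for writing, erasing or reading histone acetylation, 1 was lower, the mitochondrial deacetylase Sirt3 (-0.32). Akr1a1 and Sirt3 were lost without any 1 of 9 and 8 libraries (adjusted p up to 0.166 and 0.161). Sterol synthesis held 1 lower gene of 25, the mevalonate pathway kinase Pmvk (-0.26, adjusted p up to 0.107 with 1 library left out).

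Cell type markers differed in a few genes. All 16 fibroblast and meninges markers had a negative difference (median -0.57), 2 of them called, the collagen Col3a1 (-0.68) and the GABA transporter Slc6a13 (-0.94). The list mean was 2.45 to 3.45 log2 CPM in ethanol WT and 3.42 to 3.75 in saline KO, and saline WT lay at 2.84 to 3.16. Of 5 blood genes, 0 were called by edgeR (2 at an unadjusted p under 0.05, 0 by DESeq2), and their summed level ranged from 259 to 1163 CPM in ethanol WT and from 471 to 4551 CPM in saline KO, where F1 and M1 held the high values. Of all tested genes, 4.97% were lower. In endothelium 3 of 17 markers were lower (6 had a positive difference, median -0.05), the membrane protein Itm2a (-0.67), the tight junction protein Cldn5 (-0.40) and Ly6a (-0.58). Other lists held 1 lower marker each while their members went both ways. It was the calcium buffer Pvalb (-0.92) among 17 interneuron markers (7 positive, median -0.06), the radial glial lipid carrier Fabp7 (-0.96) among 22 markers of astrocytes and Bergmann glia (7 positive, median -0.04), and the microglial adaptor Tyrobp (-1.02) among 19 microglial markers (5 positive, median -0.09). In pericytes and vascular smooth muscle it was Vtn (-0.40) of 13 markers (3 positive, median -0.20). In ependyma and motile cilia it was Rarres2 (-0.92) of 14 (3 positive, median -0.34). Without ethanol WT M1 and saline KO F1, the calls of Col3a1 (adjusted p = 0.424), Slc6a13 (0.207), Cldn5 (0.402), Ly6a (0.18), Fabp7 (0.0775) and Tyrobp (0.204) were lost, and those of Itm2a and Pvalb were not. Leaving out 1 library ended those of Col3a1 (adjusted p up to 0.148), Slc6a13 (0.0814), Cldn5 (0.117), Ly6a (0.055) and Tyrobp (0.064). The calls of Vtn and Rarres2 were also lost without ethanol WT M1 and saline KO F1 (adjusted p = 0.374 and 0.14). Leaving out 1 library ended them too (adjusted p up to 0.158 and 0.053). In bulk tissue, fewer cells of a type and less RNA per cell cannot be told apart, and the part of these cells in the other differences was not tested.

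The difference between the groups was not found to depend on sex: 0 genes passed in the test of the sex difference with edgeR and 0 with DESeq2, and 279 had an unadjusted p under 0.05.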

How the data were processed

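PolyA RNA-seq was measured in 16 vermis libraries (4 groups of 4 mice). The submitters' processing notes name STAR 2.7.10a, featureCounts 2.0.6, cutadapt 5.0, DESeq2 and bcl2fastq, and the build GRCm39; strand and multi-mapping settings are not given in the sources used here. The deposited table gives raw counts for 56415 genes and gene length in bases as another deposited value. Most low counts were even (91.1% to 94% of values from 2 to 9), so mates were apparently counted separately, and the mitochondrial gene mt-Atp6 and the pseudogene Atp6-ps had mean counts of 349148 and 349308, so reads shared by genes were apparently counted for each. Calls of pseudogenes and paralogs are therefore uncertain.

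All 16 libraries were fitted together with edgeR 4.0.16 (R 4.3.3, limma 3.58.1; filterByExpr, TMM, robust quasi-likelihood F-test, sex as covariate), with Benjamini-Hochberg adjustment over 22441 genes and a threshold of 0.05. CPM are TMM-scaled, and log2 CPM used a prior count of 2. The mean shift is the mean of ethanol WT and saline KO minus saline WT. SE and 95% intervals are from the same fit. Replicate numbers carry the sex and are not stated to pair mice. Deviations from the group means of same-numbered libraries correlated in all 4 pairs of saline KO with saline WT (0.263 to 0.467) and of ethanol WT with saline WT (0.141 to 0.442), so the blocked value is given beside a shift where it ends a call, but not in all pairs of ethanol WT with saline KO (-0.493 to 0.389). The procedure was tested on simulated counts. Members and the 40 gene lists were chosen with earlier results of these data known. The rule for named genes took up to 15 higher and 15 lower genes of the direct comparison with the smallest p (called, mean of at least 1 CPM), up to 4 in each direction of each shift and of the mean shift (the 10 smallest p where fewer than 5 were called), Acss2 and up to 4 genes per list; Cdkn1a, Gpx1 and Sod1 fell outside the rule and were added after their values were seen. Promoters are RefSeq sequences matched by symbol or synonym. Alternatives were other scaling, filters, designs, DESeq2 1.42.0 and leaving out libraries. Python 3.11.15, pandas 2.3.3 and matplotlib 3.10.9 were used for lists and figures. Dorsal hippocampus and transcript-level tables were not used here.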

Additional observations from a re-analysis of the deposited data

Results flagged for a closer look

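In 14 of 249 sets of 4 libraries (43 genes and 40 list means in 3 groups), 1 library lay so far from the other 3 that its gap, as a share of the whole range, was above Dixon's 95% critical value. Chance gives about 1 in 20 such sets. The values that follow are log2 CPM.

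Among genes, Actr1b was low in saline WT F1 (7.64 against 7.73 to 7.73, gap share 0.955), and Atp5f1e was high there (5.03 against 4.77 to 4.81, gap share 0.832). In ethanol WT F1, Rps3 was high (6.42 against 6.28 to 6.30, gap share 0.842), as was Mt1 (7.52 against 7.24 to 7.28, gap share 0.868).

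Among pathway list means, glucocorticoid-responsive genes were high in saline WT F3 (4.48 against 4.27 to 4.30, gap share 0.871). The heat shock list was low in ethanol WT M1 (5.87 against 5.97 to 5.98, gap share 0.952) and in saline KO M1 (5.92 against 6.08 to 6.10, gap share 0.889). Activity-regulated genes were high in saline KO M3 (3.69 against 3.55 to 3.57, gap share 0.831).

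Among cell marker lists, deep cerebellar nuclei neurons were low in ethanol WT M1 (2.61 against 5.12 to 5.47, gap share 0.875). Oligodendrocyte markers were high in ethanol WT F1 (6.79 against 6.28 to 6.35, gap share 0.866) and low in saline KO F3 (6.25 against 6.40 to 6.42, gap share 0.875). Pericyte markers were high in ethanol WT M3 (3.51 against 2.95 to 3.01, gap share 0.897), choroid plexus markers in saline KO F3 (1.14 against -0.48 to -0.27, gap share 0.871), and ependymal markers in saline WT F3 (2.01 against -0.18 to 0.15, gap share 0.847).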

How the results depend on the processing

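Signs were compared across the alternative runs only for the refitted genes, most of them named in the text, and for list medians. No called value among these changed sign. Signs did change for 6 uncalled gene differences between the groups (Mt1, Mt2, Aldoc, Tbr1, Gabrb1 and Zfp810, each with adjusted p above the threshold in every such fit) and for 14 list medians, which have no test. The count of genes between ethanol WT and saline KO (1166) was 758 with protein-coding genes only and 570 without the library farthest out within each of these groups on the first principal component (ethanol WT M1 and saline KO F1), both alternatives chosen after seeing the data, and ran from 870 to 1276 when 1 library was left out. The number of higher genes, 51, was 28 with no low-count filter, 67 with RLE scaling, 121 with only the groups compared and 169 with DESeq2. The single call of the ethanol shift was 4 with no low-count filter, 0 without the sex term, 5 when fitted with only the groups compared, 17 with DESeq2, 0 without those 2 libraries, and 0 to 2 with 1 library left out. The knockout shift (1102) was 705 without those 2 libraries and 760 to 1246 with 1 library left out. The mean shift (271) was 462 with only the groups compared, 651 with DESeq2, 133 without those 2 libraries, and 88 to 356 with 1 library left out. With the replicate block the counts were 1103 between the groups, 0 for the ethanol shift, 1055 for the knockout shift and 260 for the mean shift. Between ethanol WT and saline KO the numbers were not found to pair the mice (correlations of 0.0886, 0.389, -0.493 and 0.327, not every library best with its own number). There the block ended the calls of Dbp, Col3a1 and Vtn (adjusted p = 0.0794, 0.0596 and 0.053). It also ended that of Mt2 in the ethanol shift, and changed no other refitted call of a gene named in the text. The cause of these changes was not tested, apart from the smaller number of genes or libraries that a setting itself brings. With 4 mice a group, the median SE of the difference between ethanol WT and saline KO was 0.158 on the log2 scale. SE varied by gene and is not a limit of detection. For a gene with the median SE, differences of that size and somewhat larger were not resolved.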

Other observations

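Lists of neuronal excitability and transmission, not described above, were somewhat higher in ethanol WT than in saline KO in their medians but held no calls by edgeR. Of 42 voltage-gated channel genes, 0 were called (1 at an unadjusted p under 0.05, 0 by DESeq2), with 34 positive differences and a median of 0.09. Of 30 genes of synaptic vesicles and release, 0 were called (3 and 2), with 25 positive and a median of 0.08. Of 17 GABA-A receptor subunits, 0 were called (1 and 0), with a median of 0.18, which was -0.01 without ethanol WT M3 and -0.02 without saline KO F1. All tested genes had a median of 0.01.

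Interferon-stimulated genes (0 of 30 called by edgeR, 3 at an unadjusted p under 0.05, 2 by DESeq2) had a median of -0.17 (0.02 without saline KO M1), and the collagen and laminin list (1 of 27 called) a median of -0.22. Markers of neurons of the brainstem and midbrain varied widely within ethanol WT: their summed level ran from 5.77 to 46.9 CPM in ethanol WT and from 9.51 to 30.7 CPM in saline KO, and edgeR called 0 of 20 (9 at an unadjusted p under 0.05, 1 by DESeq2). The list median of 3.89 was 1.28 without ethanol WT M3, 0.31 when fitted with only the groups compared and -0.79 over genes with a mean of at least 1 CPM, so it gives no direction for these markers.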
